A study of Mus musculus with 76 samples.

Results

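The genes described are 10 genes of the MHC class II pathway: the invariant chain Cd74, the peptide-binding chains H2-Aa, H2-Ab1 and H2-Eb1, the peptide editor chains H2-DMa, H2-DMb1 and H2-DMb2, the chains of its inhibitor, H2-Oa and H2-Ob, and Ciita, the coactivator of class II promoters. They were chosen by name, and all 10 were found among the 37980 genes of the expression table. RNA was measured in 76 libraries of 1000 sorted cells each from mice of the C57BL/6 strain, and 75 libraries in 24 groups were used, since pro/pre-B replicate 3 was identical to replicate 1 in all 37980 genes. Of the 15 natural groups, 3 were mature cells (B, T and myeloid), and 3 were stem and progenitor cells of marrow: hematopoietic stem cells (HSC), multipotent progenitors (MPP) and pro/pre-B cells. The other 9 were stages of the T lineage: early T lineage progenitors (ETP) of bone marrow (BM) and of thymus, thymocytes without CD4 and CD8 (DN1, DN2, DN3 and DN4), with both (DP) and with only one of them (CD4 SP and CD8 SP). The 9 induced groups hold these same T lineage stages. Their cells descend from marrow pro/pre-B cells that were infected with a virus carrying the homeobox gene Hoxb5 and sorted. These were transplanted into recipients irradiated at a sublethal dose, whose own blood cells can persist. Induced cells were then sorted from the recipients' marrow or thymus. Every induced group thus carries infection, transplantation and irradiation of the host together with Hoxb5, and no natural group does, so that these cannot be told apart. Groups held 2 to 4 libraries. Whether the libraries within a group stem from separate animals is not in the labels, so the p-values measure the spread between libraries, which may be technical.

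MHC class II molecules present peptides from the endosomes to CD4 T cells, and B cells, dendritic cells and macrophages are the cells best known to carry them. The invariant chain blocks the groove of a new class II molecule until endosomal proteases trim it, H2-DM then releases the remaining fragment and edits the peptides, and H2-O restrains H2-DM. Ciita binds no DNA itself. It is recruited to factors that sit on a conserved pair of promoter elements, the X box, bound by the RFX complex, and the Y box, bound by NF-Y.

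The RefSeq promoter table of build GRCm38.p6 held 8 records, from 250 bases before to 50 bases after the start, for 7 of the 10 genes. Cd74, H2-Ab1 and Ciita had no record. The letters GNAAC followed by GATTGG, with starts 29 to 32 bases apart, were searched as a simple form of the X and Y boxes, a form chosen with these sequences in view. The pair was searched on the strand of the gene in the class II promoters and on both strands over all promoters. GATTGG alone was searched on both strands throughout. The 2 motifs do not overlap. The pair was in the promoters of 5 of the 7 genes (H2-Aa, H2-Eb1, H2-DMb1, H2-Oa and H2-Ob). It was in 77 of 32851 promoters of the table (0.234%), or in 73 of 27025 genes (0.270%). GATTGG alone was in a promoter of each of the 7, in 16.1% of all promoters and in 18.2% of all genes. Windows of 86 bases are shown because their genes moved in different directions below: H2-Aa and H2-Eb1 fell, and H2-Oa and H2-Ob rose, in induced DN1 cells, and H2-DMb1 and H2-DMb2 differ in their levels. They read 5′ to 3′ on the strand of the gene, at chr17:34287847-34287932 (H2-Aa, minus strand), chr17:34305747-34305832 (H2-Eb1, plus), chr17:34092275-34092360 (H2-Oa, plus), chr17:34238787-34238872 (H2-Ob, plus), chr17:34153069-34153154 (H2-DMb1, plus) and chr17:34145098-34145183 (H2-DMb2, plus). Capitals mark GNAAC and GATTGG.
H2-Aa: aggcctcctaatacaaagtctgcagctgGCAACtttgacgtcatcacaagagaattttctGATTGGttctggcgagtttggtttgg
H2-Eb1: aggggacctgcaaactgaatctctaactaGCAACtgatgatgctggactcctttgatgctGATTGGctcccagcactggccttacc
H2-Oa: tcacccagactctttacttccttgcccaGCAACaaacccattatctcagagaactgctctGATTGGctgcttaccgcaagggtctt
H2-Ob: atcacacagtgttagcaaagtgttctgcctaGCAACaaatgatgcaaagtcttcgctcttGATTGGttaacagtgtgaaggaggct
H2-DMb1: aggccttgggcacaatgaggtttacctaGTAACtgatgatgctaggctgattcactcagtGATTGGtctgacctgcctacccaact
H2-DMb2: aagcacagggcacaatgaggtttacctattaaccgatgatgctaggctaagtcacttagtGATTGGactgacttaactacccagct
GATTGG began 44 bases (H2-Oa) to 91 bases (H2-DMb2) before the annotated start in these 6. In H2-DMb2 the pair was not matched, since these letters are not in its window at that distance. A match describes the letters and not binding.

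In GRCm38, the 8 class II region genes other than Cd74 and Ciita lie on chromosome 17, between H2-Oa, which starts at 34092340, and H2-Eb1, which ends at 34316674. H2-Aa is on the minus strand, and H2-Ab1, H2-DMa, H2-DMb1, H2-DMb2, H2-Ob and the genes at both ends are on the plus strand. Cd74 lies on chromosome 18 from 60803848 to 60812652 and Ciita on chromosome 16 from 10480059 to 10528418, each on the plus strand. The libraries do not mark the strand, so that reads of overlapping genes cannot be separated: H2-DMa overlaps the protein-coding gene Brd2 on the other strand (27.1 to 181 FPKM in these libraries), Ciita overlaps Dexi (2.68 to 43.3 FPKM), Cd74 holds the microRNA gene Mir5107, H2-Oa overlaps the antisense gene BC051537, and H2-Eb1 the antisense gene Gm20513. H2-DMb1 and H2-DMb2 share 27.2% and 25.2% of their 50-base windows with each other, so that the split of reads between them is uncertain.

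Values are FPKM, fragments scaled to transcript length and library size, so that levels of different genes can be set side by side. Total FPKM was not equal between libraries. It ran from 667660 to 2004005 (median 845820), and was highest in mature myeloid replicate 1. An FPKM of 1 over a kilobase stood for 0.974 to 11.3 fragments per library (median 4.26), and the mature myeloid libraries were the shallowest (0.974 and 0.982). Between 9828 and 12202 genes per library reached 1 FPKM. Markers matched the labels of the mature cells: the summed level of 8 B cell markers was 7310 to 10210 FPKM in mature B cells and at most 50.3 in mature T cells, that of 6 T cell markers was 3450 to 3902 in mature T cells, and that of 7 macrophage and monocyte markers was 19567 to 20588 in mature myeloid cells. The labels give no sex, and transcripts of the X-linked gene Xist and the Y-linked gene Ddx3y moved with several comparisons. From DN1 to CD8 SP every induced library had more Xist and less Ddx3y than every natural one (at DN1, 9.87 to 15.9 against 0.449 to 1.39 FPKM of Xist and 0 to 0.636 against 3.71 to 5.55 of Ddx3y). At thymic ETP the order was the opposite, with 2.44 to 5.28 of Xist in induced and 6.73 to 7.95 in natural cells, and 2.65 to 4.39 against 0 of Ddx3y. Mature B and pro/pre-B cells had 0 of Xist, with 23.6 to 28.6 and 14.3 to 20.2 of Ddx3y, mature myeloid cells 93.5 to 96.5 of Xist and 0 to 0.207 of Ddx3y, and induced BM ETP 8.65 to 10.4 of Xist and 0 of Ddx3y. The pro/pre-B libraries are used here as a reference for the cell type, since they differ in these transcripts from the induced groups and were not the infected cells themselves, and the part of sex in the results below was not tested. Tests were made with limma on log2(FPKM + 1) over 17416 genes and 75 libraries with Benjamini-Hochberg adjustment, and a gene was called at an adjusted p under 0.05. Differences are log2 fold changes ± SE on that scale, which understates the change of low genes.

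Mature B cells had the highest level of all 10 genes. Cd74 was 2528, 6496, 2566 and 4647 FPKM in the 4 mature B libraries. The next groups were mature myeloid cells with 731 and 782, natural thymic ETP with 342 and 568, and natural BM ETP with 161, 283 and 219. These 4 groups did not overlap one another. Natural DN1 cells (179, 120.0 and 164) overlapped natural BM ETP and pro/pre-B cells (172, 145 and 138). HSC, which gave 23.6 to 48.3, and MPP, which gave 27.0 to 38.0, also overlapped, and mature T cells had 2.12 to 7.59. The peptide-binding chains were of the same order: in mature B cells H2-Aa, the alpha chain of I-A, was 3844 ± 267 (SD, n = 4), H2-Ab1, its beta chain, 4542 ± 678, and H2-Eb1, the beta chain of I-E, 3111 ± 817. C57BL/6 mice are known to lack a working gene for the alpha chain of I-E, and the row of that gene, H2-Ea-ps, was at 0 in all 4 mature B libraries. The summed level of Cd74 and these 3 chains ran from 12794 to 18803 in mature B cells, from 1291 to 1352 in mature myeloid cells and from 2.36 to 14.8 in mature T cells.

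**Figure D1:**
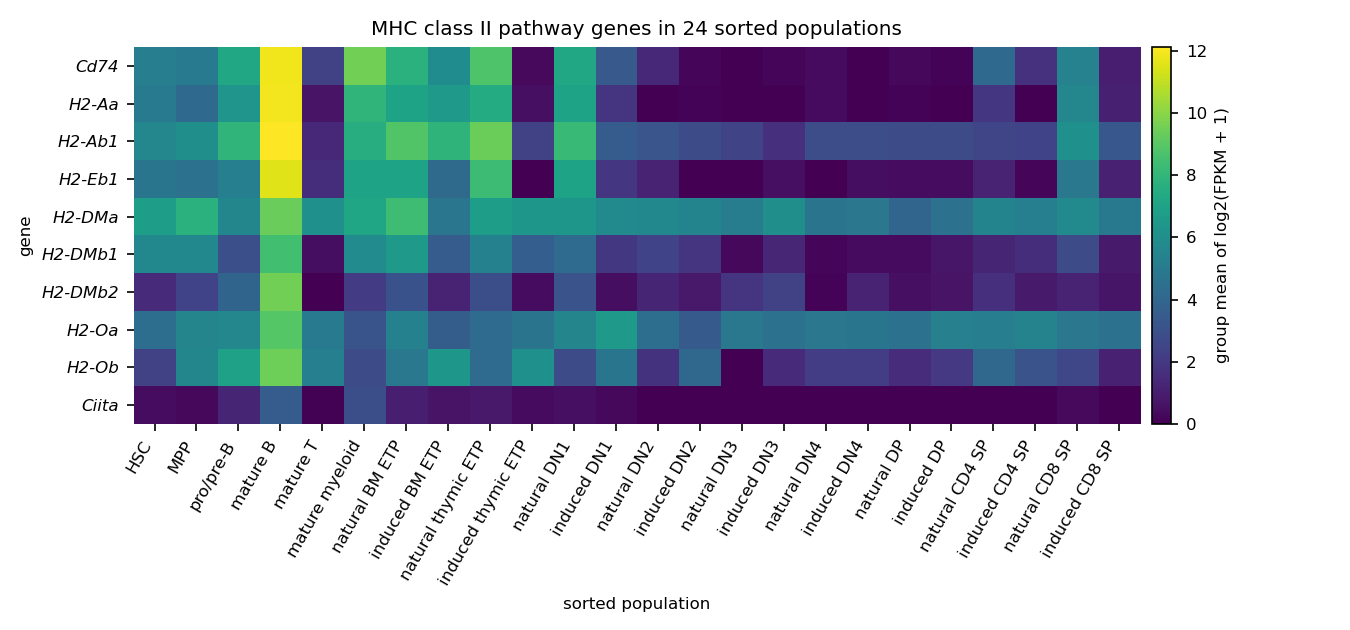
Mean log2(FPKM + 1) of the 10 class II genes (rows) in the 24 groups (columns), with a colour scale from low to high. Mature B cells are highest in every row, and the columns from DN2 to DP are dark for Cd74, H2-Aa, H2-Eb1 and Ciita but not for H2-DMa and H2-Oa.

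The editor and its inhibitor had orders of their own. H2-DMa, the alpha chain of H2-DM, was 529, 779, 537 and 866 FPKM in mature B cells, followed by natural BM ETP (341, 322 and 334) and MPP (238, 182, 244 and 193), and these 3 groups did not overlap. H2-Ob, the beta chain of H2-O, was 634, 803, 647 and 718 in mature B cells. It was 136, 119 and 108 in pro/pre-B cells, 97.5 and 74.1 in induced BM ETP, 67.7, 66.4 and 66.8 in induced thymic ETP, and 32.3 to 56.6 in MPP. No 2 neighbours in this order from mature B cells to MPP overlapped, so that the induced ETP of marrow and thymus stood directly below the pro/pre-B cells. H2-Oa, the alpha chain of H2-O, was 387 to 631 in mature B cells and came next in induced DN1 cells with 115, 74.1, 98.3 and 96.4, above pro/pre-B cells with 61.5, 68.3 and 26.8. Its lowest group mean was in mature myeloid cells (8.11 ± 2.85, SD, n = 2), which placed near the top for Cd74. Ciita was 10.8, 9.86, 10.1 and 11.1 in mature B cells and 7.18 and 5.96 in mature myeloid cells, and its mean was 1.47 or lower in the other 22 groups.

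All 10 genes were higher in mature B than in pro/pre-B cells (11.5% of all genes tested were called higher), and all 10 than in mature T cells (12.1% of all genes). In mature B against pro/pre-B cells the differences ran from 2.28 ± 0.23 for Ciita (limma, adjusted p = 5.02e-12) to 6.34 ± 0.65 for H2-Eb1 (adjusted p = 3.99e-12). Their median was 4.41, against 0.00 over all genes. H2-DMb2 was listed at 0 in all 3 mature T libraries and was 614 to 925 in mature B cells. Against mature myeloid cells 9 of the 10 were higher in mature B cells, where 18.3% of all genes were, from 2.21 ± 0.34 for H2-DMa (adjusted p = 1.27e-07) to 7.44 ± 0.56 for H2-DMb2 (adjusted p = 1.71e-17). The Ciita difference of 0.60 ± 0.27 missed the threshold there (adjusted p = 0.0593), and passed it when libraries were scaled to equal totals (0.00631) or when only these 6 libraries entered the model (0.00897). The Cd74 call against mature myeloid cells was lost under quantile normalization (adjusted p = 0.188).

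The H2-DM beta chains differed in where they were found. H2-DMb1 was 47.0, 41.9, 50.4 and 61.5 FPKM in HSC, while H2-DMb2 was 1.11, 5.83, 2.32 and 0.195 there. In pro/pre-B cells H2-DMb1 was 4.07, 11.4 and 6.54 and H2-DMb2 11.0, 15.9 and 15.2. In mature B cells H2-DMb1 was 262 to 406 and H2-DMb2 614 to 925. The log2 ratio of H2-DMb2 to H2-DMb1 (each FPKM + 1) was therefore above 0 in every pro/pre-B and mature B library (0.45 to 1.25 and 0.87 to 1.23) and below 0 in every HSC, MPP, mature myeloid and natural BM ETP library (highest value -2.65).

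Pro/pre-B cells, the cell type that was infected to make the induced cells, were compared with HSC, where 41.2% of all genes were called. In pro/pre-B cells 7 of the 10 genes were higher and H2-DMa and H2-DMb1 were lower. H2-Ob showed the largest difference, with 2.72, 4.61, 3.70 and 5.48 FPKM in HSC and 4.60 ± 0.49 on the log2 scale (adjusted p = 5.65e-12). H2-DMa was 112, 122, 92.7 and 115 in HSC and 42.3, 50.4 and 49.2 in pro/pre-B cells (-1.20 ± 0.30, adjusted p = 0.000721), and H2-DMb1 fell by 2.70 ± 0.56 (adjusted p = 5.48e-05). The calls of H2-Aa (adjusted p = 0.0497) and H2-Ab1 (0.0316) were not stable: without pro/pre-B replicate 2, for example, they were 0.190 and 0.0620, leaving out any of HSC replicates 2 to 4 or any pro/pre-B library ended the H2-Aa call (0.0546 to 0.190), and any of HSC replicates 1 to 3 or any pro/pre-B library that of H2-Ab1 (0.0523 to 0.0874). Leaving out pro/pre-B replicate 1 ended that of Ciita (0.0524). In MPP against HSC 3 of the 10 were called higher, and 3.12% of all genes were called higher: H2-Ob (3.26 ± 0.45, adjusted p = 7.64e-08), H2-Oa (1.17 ± 0.30, adjusted p = 0.00428) and H2-DMa (0.95 ± 0.28, adjusted p = 0.0176). The H2-DMa call was lost without HSC replicate 3, MPP replicate 1 or MPP replicate 3 (adjusted p from 0.0597 to 0.0702).

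Induced and natural cells were then compared stage by stage. At the BM ETP stage 7 of the 10 genes were called, 6 lower and H2-Ob higher in induced cells, in a comparison where 31.1% of all genes were called, 16.8% lower and 14.4% higher. The largest fall was in the editor. H2-DMa was 341, 322 and 334 FPKM in natural BM ETP and 19.5 and 36.1 in induced BM ETP. Every natural library was above every induced one, and the difference was -3.59 ± 0.36 (limma, adjusted p = 1.43e-12). H2-DMb1 was 81.3, 93.4 and 113 in natural and 9.53 and 11.3 in induced BM ETP (-3.07 ± 0.67, adjusted p = 0.000178). H2-Oa fell by 1.71 ± 0.38 (adjusted p = 0.000276), from 34.9 to 44.9 in natural cells to 8.15 and 15.1 in induced cells.

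The chains that bind peptide differed in varying degree between natural and induced BM ETP. H2-Aa was 102, 161 and 134 FPKM in natural and 77.7 and 107 in induced BM ETP, so that the groups overlapped (-0.51 ± 0.69, adjusted p = 0.691). H2-Ab1 was 309.8, 587 and 521 in natural and 227 and 244 in induced cells, which did not overlap and did not pass the test (-0.95 ± 1.06, adjusted p = 0.597). H2-Eb1 was 82.5, 171 and 157 in natural and 12.9 and 22.5 in induced cells (-2.86 ± 0.77, adjusted p = 0.00258). Cd74 was 161, 283 and 219 against 58.2 and 60.3 (-1.84 ± 0.59, adjusted p = 0.0117), and H2-DMb2 5.48, 8.20 and 8.66 against 1.59 and 1.07 (-1.84 ± 0.59, adjusted p = 0.0122). In the other direction, H2-Ob was 20.6, 28.1 and 36.5 in natural and 97.5 and 74.1 in induced BM ETP (1.59 ± 0.58, adjusted p = 0.0300). The calls of Cd74, H2-DMb2, H2-Eb1 and H2-Ob rest on few libraries. Without induced replicate 1 the adjusted p of Cd74 was 0.0734, of H2-Eb1 0.0590 and of H2-Ob 0.189. Without induced replicate 2 that of Cd74 was 0.0629, of H2-DMb2 0.104 and of H2-Ob 0.0737, and without natural replicate 1 or 2 that of H2-Ob was 0.106 or 0.0552. These 4 calls were also lost with a pseudocount of 0.1. Ciita, at 0.750, 0.857 and 1.44 in natural and 0.0510 and 1.25 in induced BM ETP, was called lower only without induced replicate 2 (0.0363).

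Against the pro/pre-B libraries 2 of the 10 genes were called in induced BM ETP, where 15.5% of all genes were called and 7.40% were lower: H2-DMb2 (-2.68 ± 0.59, adjusted p = 0.000605) and H2-Oa (-2.02 ± 0.38, adjusted p = 5.72e-05), both lower. Cd74, at 172, 145 and 138 FPKM in pro/pre-B cells and 58.2 and 60.3 in induced BM ETP, did not overlap either and did not pass the test with 3 against 2 libraries (-1.34 ± 0.59, adjusted p = 0.127). Ciita joined them without pro/pre-B replicate 2 (0.0204) or induced BM ETP replicate 2 (0.0160). Neither of the 2 calls was kept when only the 5 libraries of these groups entered the model (0.162 and 0.334). The largest H2-Ob value of induced BM ETP, 97.5, was just below the 108 to 136 of pro/pre-B cells (-0.50 ± 0.58, adjusted p = 0.747). B cell markers were measured in the same libraries. Their sum was 2205 and 2259 FPKM in induced BM ETP, 4909 to 5266 in pro/pre-B cells and 68.6 to 87.0 in natural BM ETP. Of the 8, 7 were higher and 1 lower in induced than in natural BM ETP, where 14.4% and 16.8% of all genes were. Of the macrophage and monocyte markers 4 of 7 were lower, with a sum of 966 to 1433 in natural and 57.5 and 80.1 in induced BM ETP. Of the dendritic markers 6 of 10 were lower and 1 higher, with a sum of 78.8 to 95.2 in natural and 43.2 and 51.9 in induced cells, in which the defining markers Itgax, Siglech and Zbtb46 were at 0. The part of these cells in the class II differences was not tested. In such samples of sorted cells, fewer cells of a type and less RNA per cell cannot be told apart.

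**Figure D2:**
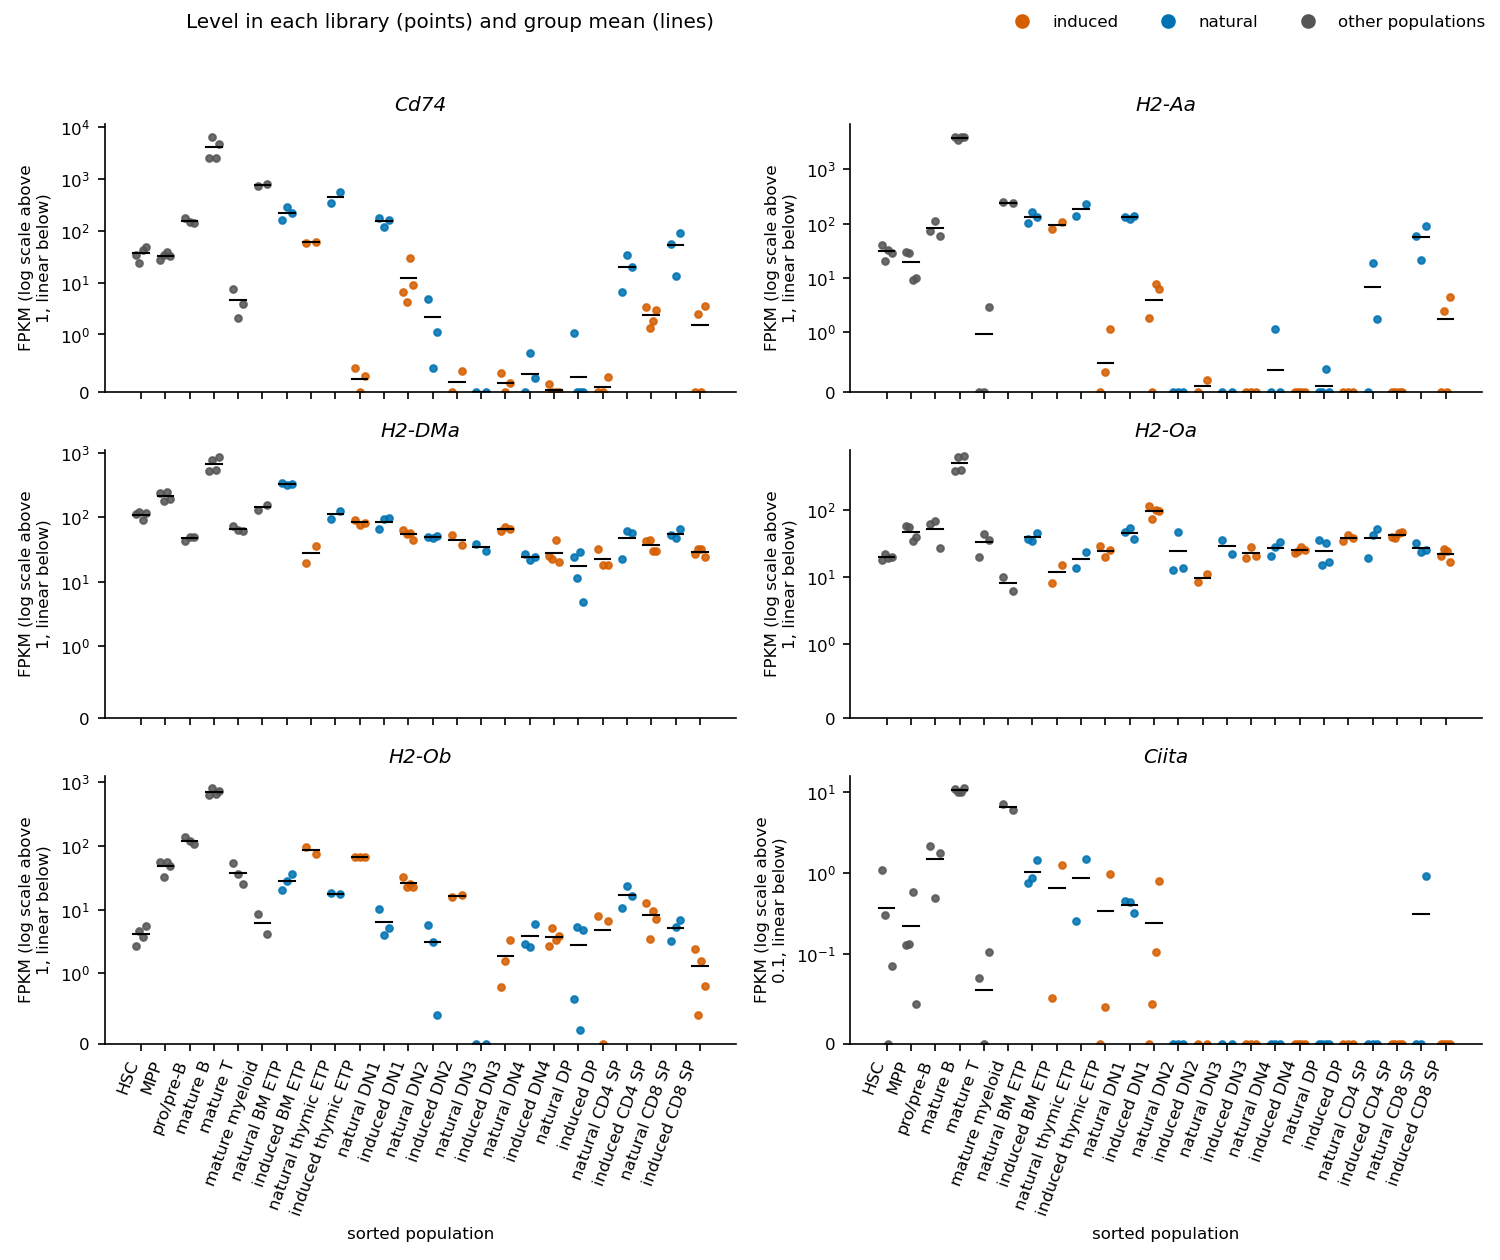
FPKM of Cd74, H2-Aa, H2-DMa, H2-Oa, H2-Ob and Ciita in each library (points) of the 24 groups, on a log axis that is linear near 0, with lines at the group means and grey points for mature, stem and progenitor cells. Natural thymic ETP and DN1 libraries lie above all induced libraries of the same stage for Cd74 and H2-Aa, and below them for H2-Ob.

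In the thymus the induced cells had almost none of the class II chains that natural ETP had. Cd74 was 342 and 568 FPKM in natural thymic ETP and 0.416, 0 and 0.281 in induced thymic ETP. H2-Eb1 was 233 and 435 in natural cells and listed at 0 in all 3 induced libraries (limma, adjusted p = 2.15e-12). H2-Aa was 139 and 227 against 0, 0.335 and 1.13, and H2-Ab1 507 and 905 against 2.09, 3.90 and 7.91. None of these groups overlapped. The differences were -8.50 ± 0.59 for Cd74 (adjusted p = 3.89e-17), -6.98 ± 0.69 for H2-Aa (adjusted p = 1.37e-11) and -7.05 ± 1.06 for H2-Ab1 (adjusted p = 2.10e-06). In total 6 of the 10 genes were called, 5 lower and 1 higher, where 8.27% of all genes were called and 3.78% were lower. The median of the 10 was -2.10, against 0.00 over all genes.

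The remaining genes did not follow the chains. H2-DMb2 was 8.49 and 5.15 FPKM in natural and 0.368, 0 and 0.747 in induced thymic ETP (-2.52 ± 0.59, adjusted p = 0.00266). H2-DMb1 was 31.3 and 48.3 against 6.57, 15.9 and 14.0, which did not pass the test (-1.68 ± 0.67, adjusted p = 0.114). H2-DMa was 94.8 and 127 against 92.3, 77.5 and 81.7, close to each other without overlap (-0.39 ± 0.36, adjusted p = 0.696). H2-Oa overlapped, with 13.7 and 23.2 against 29.3, 19.9 and 25.0 (0.43 ± 0.38, adjusted p = 0.678). H2-Ob was higher in induced cells, with 67.7, 66.4 and 66.8 against 17.8 ± 0.298 (SD, n = 2) in natural cells (1.85 ± 0.58, adjusted p = 0.0321), and Ciita was 0.258 and 1.47 in natural and 0, 0.0405 and 0.977 in induced cells, which overlapped. The H2-Ob call was lost whichever of the 5 libraries was left out (adjusted p from 0.0624 to 0.177), and the H2-DMb2 call without natural replicate 1 (0.0781). When only the 5 libraries entered the model, the Cd74 call was kept and the others were lost (H2-Eb1 0.0504, H2-Aa 0.101, H2-Ab1 0.128, H2-Ob 0.133 and H2-DMb2 0.284).

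Set against pro/pre-B cells, induced thymic ETP were lower in 7 of the 10 genes and higher in H2-DMa, where 29.8% of all genes were called. Cd74 was lower by a log2 difference of -6.96 ± 0.53 (adjusted p = 5.84e-17) and H2-Ab1 by -5.58 ± 0.95 (adjusted p = 3.19e-06). H2-Ob was also lower, at 136, 119 and 108 FPKM in pro/pre-B cells and 67.7, 66.4 and 66.8 in induced thymic ETP. These did not overlap, and the difference missed the threshold (-0.84 ± 0.52, adjusted p = 0.254). It passed when only these 6 libraries entered the model (0.00792). The H2-DMa call (0.81 ± 0.32, adjusted p = 0.0462) was lost whichever of the 6 libraries was left out (0.0677 to 0.131). That of H2-Oa (0.0265) was lost without pro/pre-B replicate 1 or 2 or induced replicate 2 or 3 (0.0533 to 0.179), and that of Ciita (0.00429) without pro/pre-B replicate 1 (0.0626).

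Markers of other cells were measured in the same thymic ETP libraries. Dendritic markers were called lower in induced cells in 5 of 10 cases and higher in none, where 3.78% of all genes were lower. Their sum nevertheless overlapped in range, at 87.0 and 112 FPKM in natural and 81.5 to 94.3 in induced thymic ETP. Tcf4 of this list went the other way without being called, at 8.67 and 23.8 in natural and 40.1 to 54.4 in induced cells. Bst2 overlapped, at 31.8 and 38.8 against 25.4 to 51.4. Siglech, a marker of plasmacytoid dendritic cells, was at 0 in all 5 libraries, whereas Batf3, a factor of conventional dendritic cells, was 25.9 and 23.9 in natural and 0 in induced libraries, and Clec9a, a receptor of these cells, 8.02 and 8.41 against 0. B cell markers Cd79a and Ms4a1 were at 0 in natural thymic ETP, and the macrophage and monocyte sum was 63.5 and 73.3 in natural and 46.5 to 62.5 in induced cells, with none of 7 called. Thymic epithelial markers, which could mark stroma with class II, had a sum of 18.4 and 18.6 in natural and 9.23 to 28.9 in induced cells, and Foxn1, Psmb11, Krt5 and Krt8 were at 0 in natural cells. Of the 7, 4 were tested and 2 called: Epcam was lower in induced cells (9.05 and 8.35 against 2.27, 0.441 and 0.929 FPKM, adjusted p = 0.00428) and Aire higher (2.73 and 5.62 against 24.3, 7.10 and 8.69, adjusted p = 0.0200). Both calls were lost without natural replicate 1 (0.0558 and 0.377), and that of Aire also without induced replicate 1 (0.256). The T cell marker sum was 1845 and 2344 in natural and 1060 to 1157 in induced thymic ETP. The part of dendritic cells and stroma in the natural value was not tested.

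At DN1 the pattern was similar and included H2-O. Cd74 was 179, 120.0 and 164 FPKM in natural and 6.60, 4.31, 29.8 and 8.93 in induced DN1 cells (-3.86 ± 0.49, limma, adjusted p = 8.55e-09). H2-Aa was 132, 122 and 139.7 against 1.84, 0, 7.63 and 6.15 (-5.18 ± 0.57, adjusted p = 1.38e-10). H2-Ab1 was 338, 205 and 344 against 7.19, 4.79, 22.0 and 16.2 (-4.63 ± 0.89, adjusted p = 6.37e-05). Every natural library was above every induced one in these 3 genes, and induced replicate 3 was the highest of the induced libraries in each. H2-Eb1 behaved alike, with 143, 106 and 141 against 0.586, 0.327, 18.9 and 3.67 (-5.12 ± 0.65, adjusted p = 6.69e-09). H2-DMb1 was 20.3, 16.4 and 16.8 against 2.01, 2.19, 2.22 and 6.32 (-2.27 ± 0.56, adjusted p = 0.00171), and H2-DMb2 16.4, 4.98 and 5.17 against 0, 0.417, 0.958 and 0.222 (-2.67 ± 0.50, adjusted p = 3.52e-05). H2-DMa, at 67.2, 95.2 and 96.5 against 64.7, 54.5, 57.9 and 45.1, did not pass the test (-0.62 ± 0.30, adjusted p = 0.153).

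Both chains of H2-O were higher in induced DN1 cells. H2-Oa was 46.2, 53.8 and 36.5 FPKM in natural and 115, 74.1, 98.3 and 96.4 in induced DN1 cells, without overlap (1.06 ± 0.32, adjusted p = 0.0123). H2-Ob was 10.1, 3.91 and 5.22 in natural and 32.4, 23.0, 25.6 and 22.6 in induced DN1 cells, again without overlap (1.94 ± 0.49, adjusted p = 0.00220). In total 8 of the 10 genes were called at DN1, 6 lower and 2 higher, where 18.8% of all genes were called, 8.93% lower and 9.90% higher, and only H2-DMa and Ciita were not. The call of H2-Oa was lost without natural DN1 replicate 3 (adjusted p = 0.0783). With natural DN1 replicates 1 and 2 and natural DN2 replicate 2 left out together, the calls of H2-Ob (0.0563) and H2-DMb1 (0.0947) were lost and the other 6 were kept.

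Most markers of dendritic and natural killer cells were lower in induced than in natural DN1 cells, and none was called higher. Siglech was 65.9, 72.3 and 100.2 FPKM in natural and 0, 0, 0 and 0.130 in induced DN1 cells, and Cd209a, a receptor of monocyte-derived dendritic cells, was 22.5, 64.6 and 53.6 against 0 in all 4. Of the dendritic markers 6 of 10 were lower in induced cells, where 8.93% of all genes were. Their sum was 137 to 213 against 26.5 to 39.5. Batf3 was not lower, at 0.397 to 4.79 in natural and 2.55 to 6.10 in induced cells. Mean Tcf4 was 17.0 and 17.1. Of the natural killer markers 5 of 6 were lower, with a sum of 2090 to 2611 against 1648 to 2090. Gzma, a granzyme and the most abundant of them, went the other way, with 1151, 1255 and 907 in natural and 1724, 1610, 1687 and 2010 in induced cells, which did not overlap and did not pass the test (0.68 ± 0.41, adjusted p = 0.288). Ncr1, a defining natural killer receptor, was 124, 109 and 89.1 in natural and 12.8, 4.28, 24.7 and 26.1 in induced cells. The macrophage and monocyte sum was 35.2 to 249 against 0.522 to 27.1, with 3 of 7 called lower. The markers called lower moved with the class II chains at DN1, and their part in the difference was not tested.

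**Figure D3:**
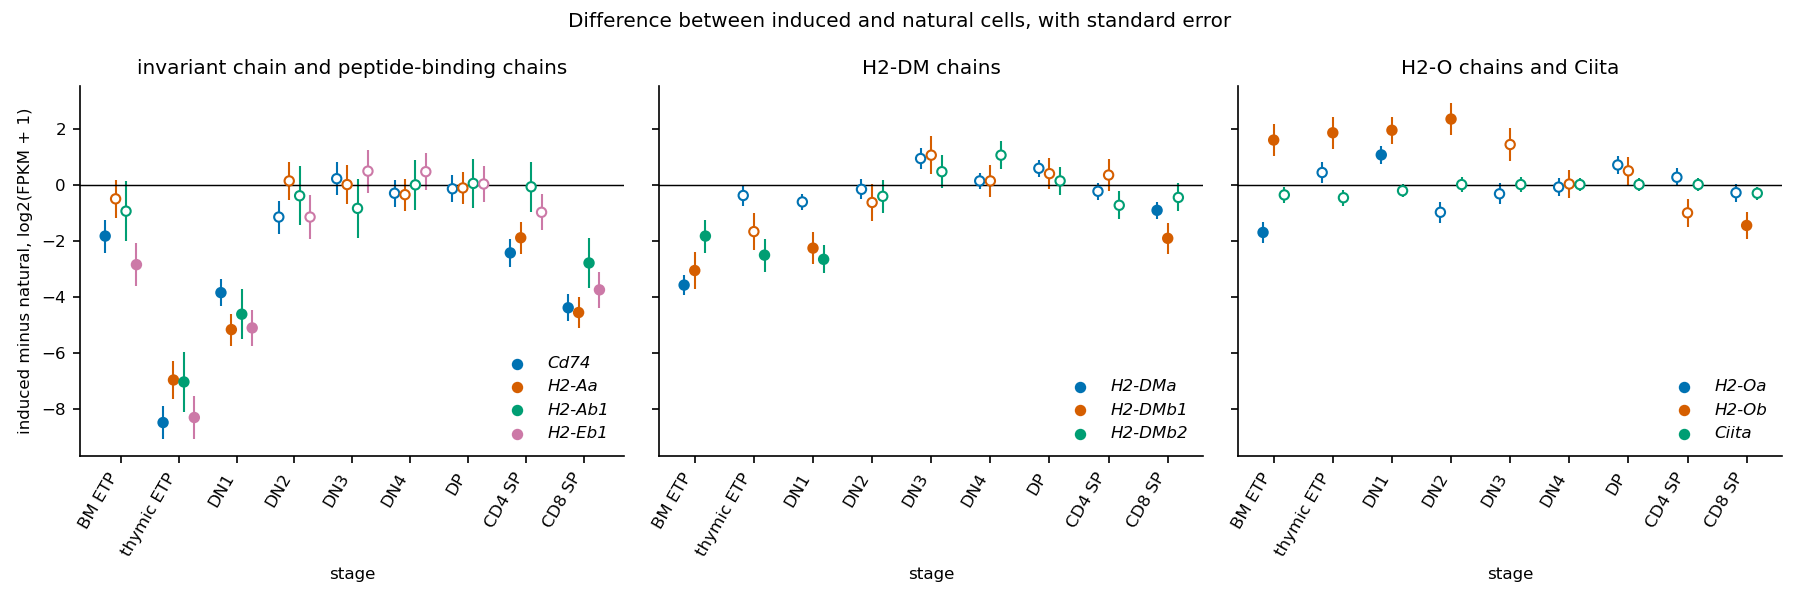
Log2 fold change, induced minus natural, of the 10 class II genes at the 9 stages with bars of 1 SE; filled points passed an adjusted p of 0.05 in limma and open points did not. Cd74 and the peptide-binding chains lie between -6.98 and -8.50 at thymic ETP, are open from DN2 to DP and are all filled again at CD8 SP; H2-Ob is filled above 0 from BM ETP to DN2.

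From DN2 to DP Cd74, H2-Aa, H2-Eb1 and Ciita were near the floor in both sources. In the 24 libraries of natural and induced DN2, DN3, DN4 and DP cells, Ciita was listed at 0 in all 24, where 1 fragment would have been worth 0.0176 to 0.0530 FPKM. H2-Aa was at 0 in 21, H2-Eb1 in 14 and Cd74 in 13, with highest values of 1.11, 1.94 and 4.92. H2-Ab1 was above 0 in all 24, from 0.268 to 23.8 (median 5.98). The editor and inhibitor alpha chains stayed measurable: H2-DMa was 4.91 to 70.7 (median 29.7) and H2-Oa 8.42 to 46.7 (median 25.0). B2m, the light chain of class I, stayed well above the floor here. Group means ran from 1188 ± 79.8 (SD, n = 4) in natural DP to 5074 ± 128 (SD, n = 2) in induced DN2. Class I genes also fell along this stretch, and natural DP cells had the lowest group mean of B2m, H2-K1 and Nlrc5. Mean H2-K1, a class I heavy chain, was 83.7 in natural and 88.8 in induced DP, against 2752 in HSC. Tap2, another class I pathway gene, did not fall in this way, with 12.1 in natural DP and 9.52 in HSC.

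The drop from natural ETP or DN1 to DN2 was large. Natural DN2 libraries had 4.92, 0.419 and 1.10 FPKM of Cd74, and H2-Aa was listed at 0 in all 3. In natural thymic ETP against DN2, 7 of the 10 genes were higher, where 3.67% of all genes were, and in natural DN1 against DN2 also 7, where 13.2% of all genes were. Cd74 was higher by 7.41 ± 0.59 in thymic ETP (adjusted p = 2.29e-14) and by 5.88 ± 0.53 in DN1 (adjusted p = 5.14e-14). These comparisons share the DN2 libraries. Some of the smaller differences depended on 1 library. For thymic ETP, the call of H2-DMa (1.13 ± 0.36, adjusted p = 0.0411) was lost with single libraries left out (0.0824 to 0.368), that of H2-Ob without DN2 replicate 3 (0.0710) and that of H2-DMb1 without thymic ETP replicate 2 (0.0871). For DN1, the call of H2-Oa was lost without DN1 replicate 2, DN2 replicate 1 or DN2 replicate 3 (0.0547 to 0.125), that of H2-DMb2 without DN1 replicate 1 (0.0885), and that of H2-DMb1 without DN1 replicate 1 (0.0605) or DN2 replicate 2 (0.134) or 3 (0.107). Between the 2 natural ETP groups only H2-DMa (-1.59 ± 0.36, adjusted p = 0.000623) and H2-Oa (-1.07 ± 0.38, adjusted p = 0.0477) were called, both lower in thymus than in marrow, where 14.5% of all genes were called. The H2-Oa call was lost without BM ETP replicate 1, 2 or 3 (0.0643 to 0.143) or thymic ETP replicate 1 (0.503).

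Induced and natural cells differed little in this stretch. At DN2 only H2-Ob was called, at 15.6 and 16.8 FPKM in induced and 5.80, 3.09 and 0.402 in natural cells (2.34 ± 0.58, adjusted p = 0.0177), where 1.50% of all genes were called. That call was lost without natural DN2 replicate 3 (0.197), induced replicate 1 (0.148) or induced replicate 2 (0.208), and when only these 5 libraries entered the model (0.481). At DN3, DN4 and DP no gene of the 10 was called by limma, where 3.54%, 0.741% and 10.4% of all genes were. Before adjustment, limma gave values under 0.05 for 2 genes at DN3, H2-DMa (0.0113) and H2-Ob (0.0167), for 1 at DN4, H2-DMb2 (0.0390), and for 1 at DP, H2-Oa (0.0324). At DN3, H2-Ob was at 0 in both natural libraries and 0.804, 1.55 and 3.28 in induced ones, and with a pseudocount of 0.1 it was called (adjusted p = 0.00547). At DP, H2-Oa was called when libraries were scaled to equal totals (0.0476), H2-DMa without natural DP replicate 3 (0.0412) and H2-Ob without induced DP replicate 2 (0.0371).

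At the single positive stages Cd74 and H2-Aa were again lower in induced than in natural cells, with 7 genes called at CD8 SP and 2 at CD4 SP, where the H2-Aa call rests on 1 library. In natural CD8 SP Cd74 was 55.8, 13.3 and 90.6 FPKM, and in induced CD8 SP 0, 2.53, 0 and 3.49 (-4.40 ± 0.49, limma, adjusted p = 2.75e-10). H2-Aa was 59.6, 20.9 and 89.2 against 0, 2.45, 0 and 4.47 (-4.57 ± 0.57, adjusted p = 8.34e-09), and H2-Eb1 54.6, 5.57 and 68.6 against 0, 2.63, 0 and 5.06 (-3.76 ± 0.65, adjusted p = 1.34e-05). The groups did not overlap, and natural replicate 2 was the lowest natural library in all 3 genes. H2-Ab1, at 116, 10.6 and 235 against 7.66, 11.2, 4.68 and 14.5, did overlap (-2.80 ± 0.89, adjusted p = 0.0297). In total 7 of the 10 genes were lower, where 10.6% of all genes were called and 5.01% were lower; the others were H2-DMa (-0.92 ± 0.30, adjusted p = 0.0341), H2-DMb1 (-1.92 ± 0.56, adjusted p = 0.0151) and H2-Ob (-1.46 ± 0.49, adjusted p = 0.0409).

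Of these 7 calls, those of Cd74 and H2-Aa held under each alternative that was run. H2-Eb1 was lost only with the 7 libraries of the comparison alone in the model (0.122). The calls of H2-Ab1, H2-DMa, H2-DMb1 and H2-Ob depended on single libraries. Without natural CD8 SP replicate 3, the adjusted p of these 4 were 0.275, 0.160, 0.136 and 0.173. Without natural replicate 1, those of H2-Ab1, H2-DMa and H2-DMb1 were 0.149, 0.0727 and 0.282, and without natural replicate 2, those of H2-DMa and H2-Ob were 0.0533 and 0.127. Leaving out induced replicate 1 gave 0.0630 for H2-Ab1, 0.0745 for H2-DMa and 0.0639 for H2-DMb1. Leaving out induced replicate 2 gave 0.148 for H2-Ob, induced replicate 3 gave 0.0874 for H2-Ab1 and 0.0530 for H2-Ob, and induced replicate 4 gave 0.0977 for H2-DMa and 0.0965 for H2-Ob. Siglech was 5.66, 11.2 and 0.648 in natural and 0, 4.99, 0 and 0 in induced CD8 SP. The dendritic sum was 25.9 to 48.8 against 22.3 to 35.5, and both overlapped. Bst2 of this list also overlapped, with means of 10.4 in natural and 14.2 in induced cells. Of the 10 dendritic markers 3 were lower, where 5.01% of all genes were. The markers ordered the natural libraries differently. Over natural replicates 1, 2 and 3, in which Cd74 was 55.8, 13.3 and 90.6, Flt3 was 2.44, 0.238 and 4.16, Clec9a 1.08, 0 and 3.26, and Cd209a 16.0, 1.57 and 0.199. Replicate 2, the lowest for Cd74, was thus the lowest for Flt3 and Clec9a and the highest for Siglech. The part of these cells was not tested.

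In CD4 SP cells Cd74 was 6.49, 34.1 and 20.4 FPKM in natural and 3.43, 1.35, 1.85 and 2.93 in induced libraries (-2.44 ± 0.49, adjusted p = 8.72e-05). H2-Aa was 0, 18.4 and 1.70 in natural cells and at 0 in all 4 induced libraries (adjusted p = 0.00898). These were the only 2 of the 10 called, both lower, where 26.4% of all genes were called and 12.4% were lower. The H2-Aa call rests on natural CD4 SP replicate 2, without which the adjusted p was 0.446. That library also had 84.7 of H2-Ab1, against 0 and 1.19 in the others, and 79.7 of Siglech, against 0.305 and 0.608. Its dendritic marker sum was 108, most of it Siglech, against 28.6 and 39.2, and 28.4 to 39.2 in induced CD4 SP cells. Itgax, Batf3, Clec9a and Cd209a of this list were at 0 in all 3 natural CD4 SP libraries. With only the 7 libraries in the model both calls were lost (0.0566 for Cd74 and 0.331 for H2-Aa).

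Both natural single positive groups were higher than natural DP cells, whose libraries had 1.06, 0, 0 and 0 FPKM of Cd74. In CD8 SP 6 of the 10 genes were higher, where 10.7% of all genes were, and in CD4 SP 4, where 13.2% were. Cd74 was higher by 5.13 ± 0.49 in CD8 SP (adjusted p = 1.10e-12) and by 3.89 ± 0.49 in CD4 SP (adjusted p = 3.85e-09). H2-Ob differed from DP by 2.55 ± 0.49 in CD4 SP (adjusted p = 2.93e-05), where it was 10.6, 23.6 and 16.6 against 0.636, 5.35, 0.195 and 4.83 in DP. In CD8 SP the H2-Ob difference did not pass (1.04 ± 0.49, adjusted p = 0.123), although it did without DP replicate 2 (0.0349) or 4 (0.0416). H2-Aa in CD4 SP (adjusted p = 0.0144) again rested on CD4 SP replicate 2 (0.557 without it). Without that library H2-Ab1 was called lower in CD4 SP than in DP (-2.19, adjusted p = 0.0486), against 1.00 with it. The call of H2-Ab1 in CD8 SP (0.00321) rested on CD8 SP replicate 3 (0.0695 without it).

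The differences at thymic ETP and DN1 were tested against that at DP. For thymic ETP, 5 of the 10 genes had a lower difference than at DP, where 3.77% of all genes had: Cd74 by -8.35 ± 0.77 (limma, adjusted p = 3.69e-12), H2-Eb1, H2-Aa, H2-Ab1 and H2-DMb2. The H2-DMb2 call was lost without natural thymic ETP replicate 1 (0.123), induced thymic ETP replicate 2 (0.0539) or induced DP replicate 3 (0.0674). For DN1, 7 were lower, where 6.38% of all genes were, with Cd74 at -3.72 ± 0.70 (adjusted p = 6.97e-05) and H2-Aa at -5.06 ± 0.81 (adjusted p = 3.81e-06). The H2-DMb1 call there was lost without induced DP replicate 3 (0.0687), and that of H2-DMa (-1.20 ± 0.42, adjusted p = 0.0459) without any 1 of 8 libraries, among them natural DP replicate 4 (0.0556 to 0.196). The H2-Ob difference at thymic ETP or DN1 was not shown to differ from that at DP (adjusted p = 0.309 and 0.167), although that at DN1 passed without induced DP replicate 1 (0.0498). Averaged over the 9 stages, 8 of the 10 genes were called, where 29.9% of all genes were, with 7 lower, from -0.48 ± 0.11 for H2-DMa to -2.49 ± 0.18 for Cd74 (adjusted p = 2.76e-17), and H2-Ob higher by 0.80 ± 0.18 (adjusted p = 0.000293). Ciita joined the lower genes without induced BM ETP replicate 2 (0.0474).

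The balance of inhibitor and editor was described within each library, as the log2 ratio of H2-Ob to H2-DMa (each FPKM + 1), with no test. In pro/pre-B cells it was 1.12 to 1.66 and in induced BM ETP 1.02 to 2.26, so that these groups overlapped. In natural BM ETP it was -3.99 to -3.16. It was -0.44 to -0.22 in induced against -2.78 to -2.33 in natural thymic ETP, -1.21 to -0.96 against -4.29 to -2.62 at DN1, and -1.69 to -1.10 against -5.21 to -2.89 at DN2. At these 4 stages every induced library was above every natural one. From DN3 to CD8 SP the ranges of the sources overlapped. At DN3 that depended on the pseudocount: with 0.1, natural cells had -8.57 to -8.26 and induced cells -6.11 to -4.27. Mature B cells stood near 0 (-0.27 to 0.27), HSC at -4.92 to -4.16 and MPP at -2.46 to -1.97. The H2-Oa to H2-DMa ratio also separated the sources at DN1, with 0.44 to 1.08 in induced and -1.38 to -0.53 in natural cells. It was higher in every induced library at BM ETP (-1.20 to -1.17 against -3.17 to -2.87) and thymic ETP (-1.91 to -1.63 against -2.70 to -2.40) too. The same held at CD8 SP (-0.49 to -0.33 against -1.37 to -0.72). At DN3 the order was reversed, with -1.66 to -1.33 in induced and -0.44 to -0.11 in natural cells. At the remaining stages the ranges overlapped.

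**Figure D4:**
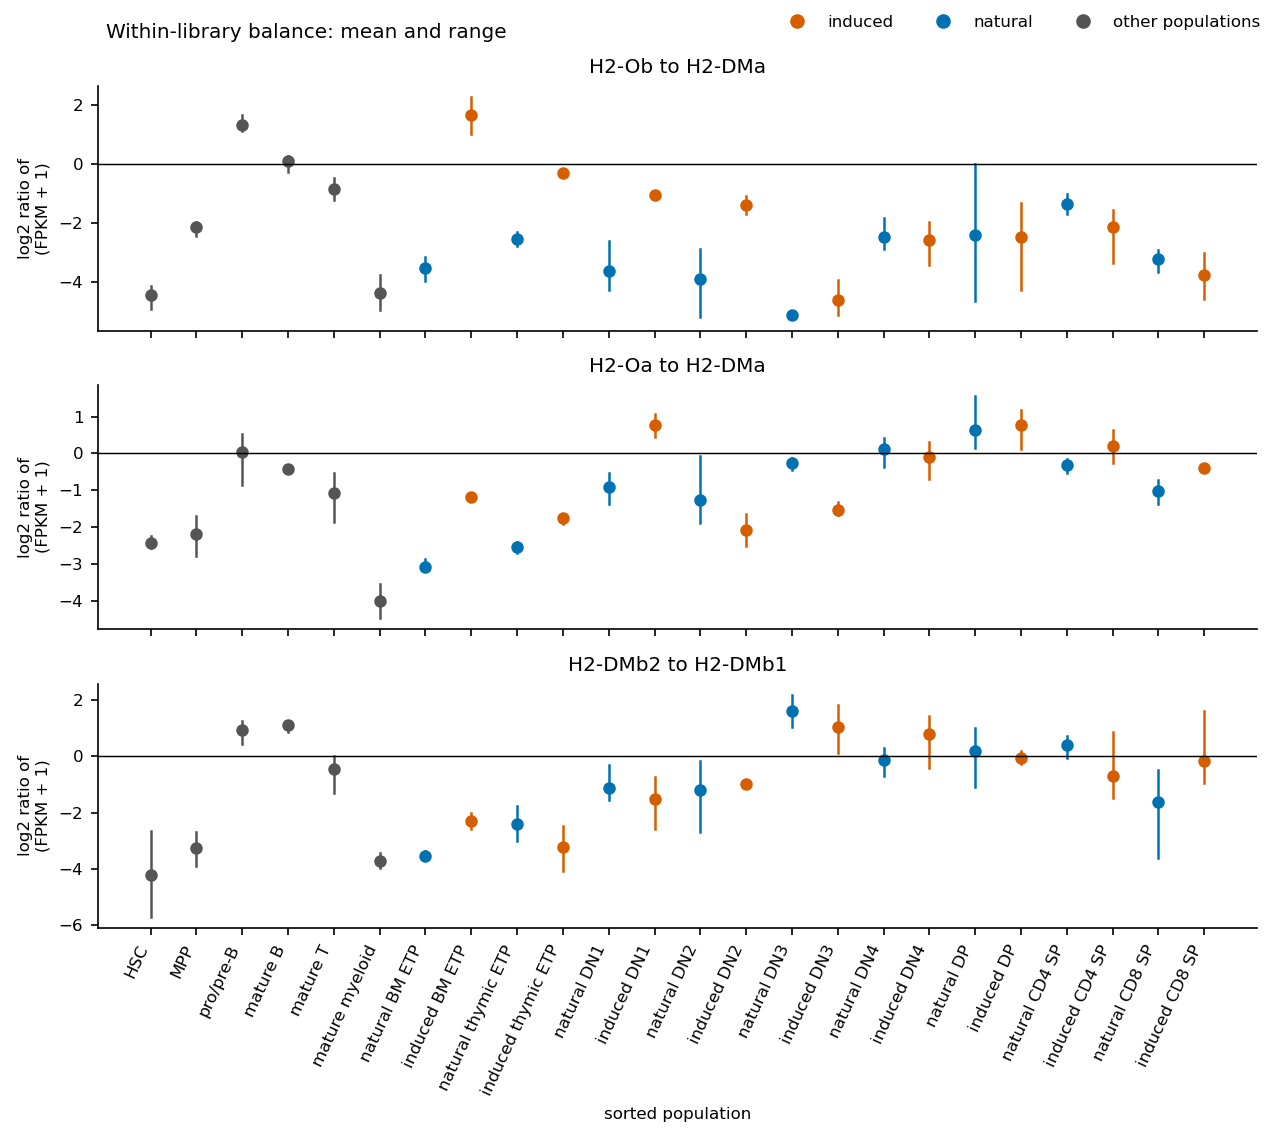
Log2 ratios of H2-Ob to H2-DMa, H2-Oa to H2-DMa and H2-DMb2 to H2-DMb1 (each FPKM + 1) in the 24 groups; points are group means and bars run from the lowest to the highest library. In the H2-Ob panel pro/pre-B cells and induced BM ETP lie above 0, and the bars of induced thymic ETP, DN1 and DN2 lie above the natural ones.

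Genes that act with the class II chains were counted from lists of the pathway. Of 12 factors of class II promoters 1 was called at thymic ETP, where 8.27% of all genes were, which is near its share of the list. It was Irf8, an interferon regulatory factor of B and dendritic cells, at 30.2 and 78.7 FPKM in natural and 0, 0.0762 and 0.825 in induced cells (-5.32 ± 0.55, adjusted p = 7.16e-11). Spi1 (PU.1), which works with it, was 10.7 and 14.5 against 35.9, 21.9 and 19.9, which did not pass the test (0.95 ± 0.43, adjusted p = 0.182). The median of the 12 was 0.01, against 0.00 over all genes. Rfx5, the subunit of the complex on the X box, was 4.59 and 2.30 in natural and 4.17, 5.43 and 2.98 in induced thymic ETP, which overlapped. At DN1 1 of the 12 was higher and 4 lower (18.8% of all genes called), with Irf8 at 49.7, 56.2 and 49.9 against 7.96, 6.75, 13.8 and 11.8 (-2.30 ± 0.46, adjusted p = 0.000113). At BM ETP 5 were higher and 2 lower (31.1% of all genes called): Spi1 was 89.8, 90.8 and 125 in natural and 2.66 and 4.62 in induced cells (-4.48 ± 0.43, adjusted p = 3.39e-13), and Irf4 was at 0 in natural and 43.2 and 42.5 in induced cells (adjusted p = 1.85e-18).

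Of 7 endosomal proteases and reductase, which trim the invariant chain and prepare antigen, 3 were lower and none higher at thymic ETP, 4 and none at DN1, and 5 and 1 at BM ETP, where 8.27%, 18.8% and 31.1% of all genes were called. Their medians were -0.18, -1.05 and -2.61, against 0.00 over all genes each time. Cathepsin H (Ctsh) was 14.3 and 6.68 FPKM in natural thymic ETP and at 0 in the 3 induced libraries (adjusted p = 4.91e-06). Ctss, cathepsin S, which makes the last cut of the invariant chain, was 38.4 and 76.7 against 0, 5.14 and 2.47 (-4.32 ± 0.50, adjusted p = 3.28e-09). Ifi30 (GILT), the reductase, was 71.1 and 94.3 against 5.49, 17.3 and 8.25 (-3.01 ± 0.68, adjusted p = 0.00172). With only the 5 libraries in the model, the calls of these 3 and of Irf8 at thymic ETP were lost (adjusted p from 0.165 to 0.315). Of 6 genes of class II turnover and costimulation, 3 were lower at thymic ETP and none higher, against the same 8.27%. Cd86, a costimulatory ligand, was 2.90 and 14.6 in natural and 0 in all induced libraries (adjusted p = 0.000217), a call that was lost without natural replicate 2 (0.108). Cd40, a receptor for T cell help, was called lower (adjusted p = 0.000581) but not without natural replicate 1 (0.0611), and March1, a ligase that removes class II from the surface (adjusted p = 0.00528), not without natural replicate 2 (0.270).

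Class I genes differed from class II at thymic ETP and fell with it at DN1 and the single positive stages. Of 7 class I pathway genes 3 were higher and none lower in induced thymic ETP, where 8.27% of all genes were called. H2-K1, a class I heavy chain, was 1534 and 1551 FPKM in natural and 2326, 2194 and 2416 in induced cells (0.58 ± 0.18, adjusted p = 0.0327), although leaving out single libraries, such as natural replicate 1 (0.170), ended that call. At DN1, where H2-K1 was 3713, 3486 and 3386 against 1272, 1027, 1222 and 1053 (-1.63 ± 0.15, adjusted p = 5.28e-13), 6 of the 7 were lower, where 8.93% of all genes were. At CD8 SP and CD4 SP 5 of 7 each were lower, where 5.01% and 12.4% of all genes were. Nlrc5, the coactivator of class I promoters, was 142, 175 and 135 against 65.6, 67.2, 77.9 and 69.7 at DN1 (-1.09 ± 0.33, adjusted p = 0.0139), a call lost without natural DN1 replicate 2 (0.0757). Ifng, whose protein induces Ciita and class I genes, was 228, 218 and 275 in natural and 17.3, 16.7, 31.7 and 22.9 in induced DN1 cells (-3.42 ± 0.63, adjusted p = 3.38e-05). Of the 7 genes of the interferon gamma axis 2 were lower at DN1 and none higher, where 8.93% of all genes were lower.

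The genes whose group means were most like those of Cd74 over the 24 groups were given by Pearson's r of log2(FPKM + 1) among 10881 genes outside the 10, as a description. They were Ctsh (r = 0.898), Nucb2 (0.887), Rnase6 (0.869), Pkib (0.862), Lrrk1 (0.861), Plbd1 (0.843), Irf8 (0.840) and Slc46a3 (0.836). The 10 genes themselves differed in likeness to Cd74, from H2-Aa (0.976), H2-Eb1 (0.970) and H2-Ab1 (0.935) to H2-Ob (0.593) and H2-Oa (0.337). For Ciita (0.815 with Cd74) the closest were Cd180 (0.967), Lrrk2 (0.942), March1 (0.941), Rab39 (0.935) and Pira2 (0.928). By Spearman's coefficient Cd180 was also the closest to Ciita (0.914). The others ranked much lower by it, at 59 (Lrrk2), 150 (Pira2), 424 (March1) and 1007 (Rab39). For Cd74 the Spearman ranks of the genes named ran from 1 (Plbd1) to 165 (Pkib). The 24 points share libraries made in 1 series, and Ciita was above 1.47 on average in mature B and mature myeloid cells alone. The coefficients were not computed without these 2 groups.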

How the data were processed

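RNA of 1000 sorted cells per library was captured by its polyA tail, amplified as cDNA and made into Nextera XT libraries, per the labels' protocols. The deposited table holds FPKM per gene, which the authors made with bcl2fastq, TopHat, Cufflinks 2.2.1 and Cuffnorm on mouse build NCBIM37, per the submitters' processing notes, which give no parameters. Raw counts were not used here, so depth was estimated from the steps between low FPKM values, of which 71.6% to 93.1% per library lay within 0.2 of a whole number of fragments.

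Groups were taken from the labels, and pro/pre-B replicate 3, a copy of replicate 1, was left out. The 17416 genes that reached 1 FPKM in 2 or more libraries, among them all 10 class II genes, were tested on log2(FPKM + 1) with limma 3.58.1 in R 4.3.3, with 1 mean per group over 24 groups and 75 libraries, 51 residual degrees of freedom, empirical Bayes with trend and robust settings, two-sided tests and Benjamini-Hochberg adjustment in each of 24 comparisons at a threshold of 0.05. Tables and figures used Python 3.11.15, pandas 2.3.3, numpy 2.4.6 and matplotlib 3.10.9. The fit was tested on simulated data. The genes named are the 10 class II genes, lists of genes that act with them, markers of 6 cell types, and the genes most like Cd74 and Ciita among those with a symbol and a group mean of at least 5 FPKM. The class II genes and the lists were chosen with earlier results of these data known. Coordinates and promoters are those of GRCm38 and its RefSeq annotation, not of the authors' build. Alternatives were a pseudocount of 0.1, no filter, libraries scaled to equal totals, quantile normalization, a replicate block, a model of just the groups compared, each library left out in turn, and natural DN1 replicates 1 and 2 with natural DN2 replicate 2 left out together. One marker gene is not reported here.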

Additional observations from a re-analysis of the deposited data

Results flagged for a closer look

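In groups of 4 libraries, 74 sets of values were searched for 1 library far from the other 3, and 9 had one. Chance flags about 1 in 20 groups. Most were low values beside libraries at or near 0. Cd74 was 1.06 FPKM and H2-Eb1 1.94 FPKM in natural DP replicate 1, where the other 3 libraries were at 0, and H2-Aa was 0.391 FPKM in natural DP replicate 3. Cd74 was 0.136 FPKM in induced DN4 replicate 1 and H2-Eb1 0.789 FPKM in induced CD4 SP replicate 1, again beside libraries at 0. Ciita stood out at 0.577 FPKM in MPP replicate 3. Induced DN1 replicate 4 stood out in both Ciita (0.806 FPKM) and H2-DMb1 (6.32 FPKM), although induced DN1 replicate 3, and not replicate 4, was highest for Cd74, H2-Ab1, H2-Aa and H2-Eb1. H2-Ab1 was low in MPP replicate 2, at 39.5 FPKM, where the other MPP libraries had 73.3 to 79.9.

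The difference between induced and natural cells itself differed between stages, by limma's test of the difference of differences with Benjamini-Hochberg adjustment. Between thymic ETP and DP the log2 difference was -8.35 for Cd74, -8.34 for H2-Eb1, -7.09 for H2-Ab1, -6.86 for H2-Aa and -2.65 for H2-DMb2. H2-Eb1 was at 0 in all induced thymic ETP libraries, so that its value depends on the pseudocount. Between DN1 and DP it was -5.14 for H2-Eb1, -5.06 for H2-Aa, -4.67 for H2-Ab1, -3.72 for Cd74, -2.80 for H2-DMb2, -2.66 for H2-DMb1 and -1.20 for H2-DMa. Both sets use the same DP libraries, and natural cells were higher than induced ones in these genes at thymic ETP and DN1.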

How the results depend on the processing

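Of 128 calls of the 10 genes over 24 comparisons, 73 held under each alternative run, 55 were lost under at least 1, and 0 reversed. The number of the 10 genes called moved by more than 1.5 times as follows. With a pseudocount of 0.1 it was 3 at BM ETP, 0 at DN2, 1 at DN3, 4 at CD8 SP, 1 for induced BM ETP against pro/pre-B cells and 1 for natural thymic against BM ETP. With just the compared groups in the model it was 1 at thymic ETP, 0 at DN2, 0 at CD4 SP, 3 at CD8 SP, 0 for induced BM ETP against pro/pre-B cells, 1 for natural thymic against BM ETP, 2 for natural thymic ETP against DN2, 1 for CD4 SP and 2 for CD8 SP against DP, and 3 for the thymic ETP against the DP difference. Scaling to equal totals gave 1 at DP, and 1 for natural thymic against BM ETP, as did no filter (1) and quantile normalization (1). Without natural DN1 replicates 1 and 2 and DN2 replicate 2, 4 were called for the DN1 against the DP difference.

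With 1 library left out, the number called was 4 to 7 at BM ETP, 4 to 5 at thymic ETP, 7 to 8 at DN1, 0 to 1 at DN2, 0 to 0 at DN3 and DN4, 0 to 1 at DP, 1 to 2 at CD4 SP, 3 to 6 at CD8 SP and 8 to 9 for the mean of 9 stages. It was 10 to 10 for mature B against pro/pre-B and against mature T cells, 9 to 9 against mature myeloid cells, 6 to 8 for pro/pre-B cells against HSC and 2 to 3 for MPP against HSC. Induced BM and thymic ETP against pro/pre-B cells gave 2 to 3 and 5 to 7. Natural thymic against BM ETP gave 1 to 2, thymic ETP and DN1 against DN2 5 to 7 each, CD4 SP and CD8 SP against DP 4 to 5 and 5 to 7, and the differences at thymic ETP and DN1 against that at DP 4 to 5 and 6 to 7.

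Over all genes, the model of just the compared groups called fewer genes: 16 in place of 1441 at thymic ETP, 50 in place of 262 at DN2, 0 in place of 616 at DN3, 115 in place of 1804 at DP, 2132 in place of 4599 at CD4 SP, 13 in place of 2698 for induced BM ETP and 2872 in place of 5193 for induced thymic ETP against pro/pre-B cells. For mature B cells it called 2147 in place of 4346 against pro/pre-B and 1732 in place of 4167 against mature T cells, for MPP against HSC 827 in place of 1416, for thymic ETP and DN1 against DN2 119 in place of 1161 and 2937 in place of 4598, for CD4 SP and CD8 SP against DP 1315 in place of 4655 and 1686 in place of 4169, and for the thymic ETP and DN1 differences against that at DP 617 in place of 1540 and 1601 in place of 2440. At DN4 it called 374 in place of 129. That model estimates the spread from 4 to 14 libraries. Without the 3 DN1 and DN2 libraries, 1505 genes were called in place of 3280 at DN1, 2601 in place of 4598 for DN1 against DN2 and 1423 in place of 2440 for the DN1 against the DP difference. The cause was not tested in the other cases.

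Libraries of the same number deviated together little or not at all (correlations of -0.04 to 0.13 over 47 pairs, and -0.13 to 0.10 over 125 pairs of different numbers), so that the numbers were not taken to pair libraries. MPP against HSC stood apart. There each same-number pair was positive (0.02 to 0.13), while replicates 1 and 2 of one group against 3 and 4 of the other were negative (-0.13 to -0.02). The replicate block ended 4 calls, H2-DMa at CD8 SP (0.0593), in induced thymic ETP against pro/pre-B cells (0.121) and for DN1 against DP (0.109) and H2-Aa in pro/pre-B cells against HSC (0.0530), and kept the 24 counts within 1.5 times. Scaling to equal totals moved 28 of 240 group levels by more than 1 SD, and in pro/pre-B cells against HSC the median of all genes to -0.13, from -0.06. Of the 13 genes named as most like Cd74 or Ciita, 4 stayed among the leading ones by Spearman's coefficient and 9 by Pearson's over 75 libraries. Values near 1 FPKM rest on a few fragments, and the mature myeloid libraries were the shallowest.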

Other observations

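Genes around class II that were not described above also differed between mature B and pro/pre-B cells, by limma with Benjamini-Hochberg adjustment. Of 6 genes of class II turnover and costimulation 4 were higher in mature B cells and none lower, where 11.5% of all genes were higher, with a median log2 difference of 2.55 against 0.00 over all genes. Cd83, a surface protein that stabilizes class II, was 2.62, 4.38 and 21.0 FPKM in pro/pre-B and 238, 288, 183 and 301 FPKM in mature B cells (5.05 ± 0.48, adjusted p = 4.84e-13). March1, the ligase that removes class II from the surface, rose too, from 1.57, 0.268 and 0 to 47.6, 35.2, 43.3 and 34.3 FPKM (4.78 ± 0.33, adjusted p = 3.17e-18). Of the 7 proteases and reductase 4 were higher and none lower, among them Ctsh, which was 9.42, 2.78 and 8.29 in pro/pre-B and 418 to 487 FPKM in mature B cells (5.97 ± 0.45, adjusted p = 8.78e-17). Of 7 class I genes 6 were higher with a median of 0.81, and of the 12 promoter factors 1 was higher and 3 lower, with a median of 0.08. H2-Eb2, a neighbour of H2-Eb1, was 0.169, 0.303 and 0.719 FPKM in pro/pre-B and 28.3 to 44.7 in mature B cells (4.76 ± 0.25, adjusted p = 9.76e-24). In BM ETP it was listed at 0 in the 3 natural libraries and 1.02 and 5.94 FPKM in the induced ones (adjusted p = 4.32e-07).

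In single positive thymocytes 5 of 7 class I genes were lower in induced cells at each stage, where 12.4% of all genes were lower at CD4 SP and 5.01% at CD8 SP. Nlrc5 was 189, 209 and 187 FPKM in natural and 9.53 to 31.4 FPKM in induced CD4 SP (-3.21 ± 0.33, adjusted p = 1.61e-11), and 56.8, 34.2 and 58.7 against 7.09, 4.91, 13.3 and 8.29 FPKM in CD8 SP (-2.47 ± 0.33, adjusted p = 4.98e-08). In both, no natural library overlapped an induced one. Of the 7 proteases and reductase, 5 were lower and 1 higher in induced CD4 SP (26.4% of all genes called), and 2 lower and none higher in CD8 SP. The Ctsh call in CD4 SP rests on natural replicate 2, without which all libraries were at 0. Ctss was 178, 297 and 279.8 FPKM in natural and 21.1 to 43.0 FPKM in induced CD4 SP (-3.16 ± 0.42, adjusted p = 1.95e-08). Ctsl was the one that rose there, from 28.9, 34.5 and 12.2 to 172, 122, 178 and 144 FPKM (2.67 ± 0.48, adjusted p = 1.20e-05). In CD8 SP Ctss and Ctsh were the 2 that fell, and Ifi30 was 21.3 ± 14.1 FPKM (SD, n = 3) in natural and 41.9 ± 12.2 (SD, n = 4) in induced cells, which overlapped (limma, adjusted p = 0.206). Of 7 genes of the interferon gamma axis 6 were lower and 1 higher in induced CD4 SP, and 4 lower and none higher in CD8 SP, where 26.4% and 10.6% of all genes were called. Of 6 T cell markers 4 were lower and 1 higher in induced CD4 SP, and the part of the mix of cells in these values was not tested.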
